A study of Tupaia belangeri with 15 samples.

Results

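SLCO1C1 and the genes of thyroid hormone signalling were followed across the cell classes of the tree shrew (TS, Tupaia belangeri) retina and across its 3 age stages. The members were fixed by name, namely SLCO1C1, THRA, THRB, DIO1, DIO2 and DIO3, and 5 of these 6 names matched a gene feature among the 83605 features of the count matrices. SLCO1C1 was selected on its measured values in these data, the fall of its counts from infancy to senility in several classes, so its levels by stage are given here as a description without a test. DIO3, the enzyme that inactivates the hormone, was not analysed here. The features were TSDBGID.23994 for SLCO1C1, TSDBGID.10395 for THRA, TSDBGID.18861 for THRB, TSDBGID.25219 for DIO1 and TSDBGID.22092 for DIO2.

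Thyroid hormone reaches the brain and the retina mainly as thyroxine, and cells take it up through membrane transporters. SLCO1C1 encodes OATP1C1, a transporter with a high affinity for thyroxine that is known from the endothelium of the blood-brain barrier and from astrocytes. DIO2 and DIO1 encode deiodinases that turn thyroxine into the active hormone triiodothyronine, and DIO2 is the main activating enzyme of glia in the brain. THRA and THRB encode the nuclear receptors that bind triiodothyronine and act on target genes together with retinoid X receptors, corepressors and coactivators. In the retina, THRB is best known for directing cones towards the longwave-sensitive type.

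Nuclei of 15 frozen retinas had been profiled by single-nucleus RNA sequencing on the 10x Genomics platform, 5 retinas of separate animals at each of the Infancy, Mature and Senile stages. No genotype or treatment is given, and ages are not stated per retina in the labels. Senile animals came from another institute than infant and mature animals, so the senile stage and the source of the animals cannot be told apart. The submitters' processing notes name Cell Ranger 5.0.1 for 7 libraries (Infancy 1 to 3, Mature 1 and 2, Senile 1 and 2) and 7.0.1 for the other 8, and this split was a term of every fit. Libraries held 13429873 to 58734300 unique molecular identifiers (UMIs, counts of single RNA molecules) in 4269 to 9856 barcodes, with a median of 1461.0 to 5611.0 UMIs per barcode. These medians were 1461 to 3068 with 5.0.1 and 2268 to 5611 with 7.0.1. The version can therefore not be fully told apart from depth or from other differences between these sets of libraries. A single non-coding feature, LINC-FRMD8-1, took 12.1% to 21.2% of the UMIs of a library. Of 118622 distinct barcodes, 1793 occurred in more than 1 library, and no pair of libraries shared more than 0.422% of the smaller one.

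After limits on quality and removal of doublets, 111825 nuclei were clustered within each retina and clusters were named from marker genes. This gave 14721 cones, 818 rods, 29978 bipolar cells (BCs), 1244 horizontal cells (HCs), 29892 amacrine cells (ACs), 5884 retinal ganglion cells (RGCs), 7555 Müller cells, 1178 astrocytes and 613 microglia, each name standing for nuclei like that class by these markers, while 19685 nuclei stayed unnamed. UMIs were summed per retina and class wherever a retina had at least 10 nuclei, and levels are given as CPM, the UMIs of a gene per 1000000 UMIs of that sum. The marker lists held in their own classes, with 6 of 8 cone markers, 6 of 9 BC markers, 5 of 8 AC markers, 8 of 10 RGC markers, 7 of 7 Müller markers and 6 of 6 astrocyte markers at 20 CPM or more, but 2 cone markers, 1 BC marker, 2 AC markers and 2 RGC markers were at 0. Markers of other classes were also counted within a class, so a class may hold RNA of others, which was not tested. In ACs the median sum over retinas was 1299 CPM for AC markers, 588 CPM for RGC markers and 419.6 CPM for BC markers. Of these RGC and BC lists, 2 of 10 and 3 of 9 markers were at 20 CPM or more in ACs. In RGCs the median sum was 2337 CPM for RGC markers and 1141 CPM for BC markers, with 3 of 9 BC markers at that level. In Müller cells it was 6788 CPM for Müller markers and 957 CPM for endothelial markers. Only 2 of 8 endothelial markers were at 20 CPM or more there. Müller markers summed to 1093 to 2022 CPM in astrocytes, and astrocyte markers to 394.5 to 865 CPM in Müller cells, 237 to 1079 CPM in ACs and 96.8 to 279.8 CPM in BCs, against 4298 to 9312 CPM in astrocytes themselves.

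SLCO1C1 was read 12981 times over all barcodes and was highest in astrocytes, followed by ACs, RGCs, Müller cells, HCs and BCs. Astrocytes averaged 246 CPM (SD 224, n = 13 retinas) and ACs 46.9 CPM (SD 10.3, n = 15). RGCs averaged 32.4 CPM, Müller cells 28.4 CPM, HCs 23.1 CPM and BCs 18.0 CPM. In contrast, cones held 79 UMIs in 14721 nuclei, a mean of 1.21 CPM with a range of 0.403 to 3.67. Microglia held 14 UMIs with 8 of 12 retinas at 0, and rods 11 UMIs with 7 of 11 retinas at 0. Only some neighbours in this order were separated by more than the spread of their difference across retinas. Astrocytes lay above ACs in 13 of 13 retinas, with a log2 difference of 1.88 ± 1.30 (SD), and ACs above RGCs in 15 of 15 retinas, with 0.55 ± 0.35. RGCs and Müller cells (0.37 ± 0.59), Müller cells and HCs (0.59 ± 1.56) and HCs and BCs (0.04 ± 1.42) did not differ beyond their spread.

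**Figure D1:**
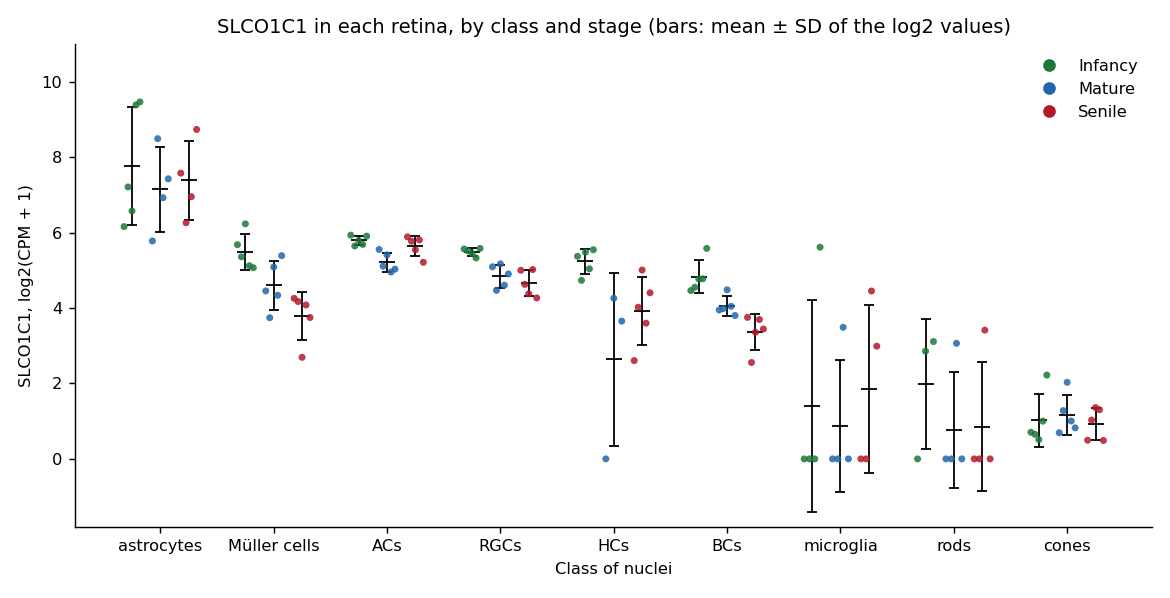
SLCO1C1 level of each retina as log2(CPM + 1) on the vertical axis for 9 classes of nuclei on the horizontal axis, coloured by stage, with the mean ± SD of the log2 values of a stage as black bars. Astrocytes lie at the top with a wide spread, cones close to 0, and the senile points of BCs and Müller cells lie below all of their infant points.

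The stage pattern that led to the choice of SLCO1C1 was seen in BCs, the interneurons that carry photoreceptor signals to the inner retina. The 5 infant retinas, in the order of their replicate numbers, gave 21.1, 22.5, 26.2, 26.4 and 46.8 CPM. The mature retinas gave 14.4, 14.8, 21.4, 15.5 and 12.9 CPM, and the senile retinas 12.5, 4.88, 9.24, 11.96 and 9.89 CPM. Every senile retina lay below every infant one, and the stage means were 28.6 ± 10.5 (SD), 15.8 ± 3.24 and 9.69 ± 3.01 CPM. The fitted log2 fold change of senile minus infancy was −1.56 ± 0.24 (SE).

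Müller cells, the radial glia of the retina, showed a difference of similar size on fewer counts, 3 to 75 UMIs per retina. Infant retinas gave 50.2, 40.0, 74.2, 33.8 and 32.5 CPM. Mature retinas gave 20.9, 12.4, 33.0, 19.2 and 40.9 CPM, and senile retinas 18.1, 17.0, 5.47, 15.9 and 12.4 CPM. Senile and infant retinas did not overlap, while the mature retinas overlapped with both, and the fitted senile minus infancy value was −1.76 ± 0.36 on the log2 scale.

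In RGCs, the output neurons, infant retinas gave 46.4, 44.7, 42.7, 39.2 and 46.9 CPM. Mature retinas gave 33.1, 21.1, 35.0, 23.3 and 28.9 CPM, and senile retinas 31.0, 23.7, 19.8, 31.4 and 18.3 CPM. All 5 infant retinas lay above all mature and all senile ones, and the fitted change was −0.68 ± 0.18 from infancy to maturity and −0.94 ± 0.18 from infancy to senility.

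ACs, inhibitory interneurons, took another course. Their infant retinas gave 60.0, 49.1, 54.4, 50.5 and 58.9 CPM, their mature retinas 45.9, 33.5, 41.5, 30.0 and 31.7 CPM, and their senile retinas 58.2, 53.6, 45.6, 54.9 and 36.1 CPM. Mature retinas lay below all infant ones, whereas senile and infant retinas overlapped. The fitted values were −0.57 ± 0.14 for mature minus infancy, 0.38 ± 0.14 for senile minus mature and −0.20 ± 0.14 for senile minus infancy.

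HCs and astrocytes were measured in 13 retinas each. HCs gave 40.4, 25.6, 43.7, 31.9 and 45.7 CPM in infancy, 0, 18.1 and 11.6 CPM in Mature 1, 3 and 5, and 5.09, 15.2, 31.1, 11.1 and 20.2 CPM in senility, so that infant and senile retinas overlapped. Infant astrocytes gave 70.5, 147, 94.2, 668 and 705 CPM, with Infancy 4 and 5 far above the others. Mature astrocytes gave 53.9, 359, 120.5 and 171 CPM in Mature 1, 2, 3 and 5, and senile astrocytes 189.9, 75.7, 123 and 425 CPM in Senile 1, 3, 4 and 5. The stages overlapped throughout in astrocytes, and the fitted senile minus infancy value was −0.94 ± 0.63. The plain difference of the mean log2(CPM + 1) between senile and infant retinas was −0.38, and it was 0.03 without Infancy 4 and 0.05 without Infancy 5.

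For the 5 classes measured in all 15 retinas, every senile retina lay below every infant retina for SLCO1C1 in BCs, Müller cells and RGCs, and not in ACs or cones. Of 75717 gene and class pairs tested in these 5 classes, 0.371% had every senile retina below every infant retina, and 2.39% had every senile retina above. The gene was picked for this pattern, so nothing is read from the count.

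Markers of other cell types were summed beside the stage pattern, since astrocytes, ACs and RGCs carried more SLCO1C1 than BCs. The 6 astrocyte markers summed to 96.8 to 219.6 CPM in infant BCs, 123 to 192 CPM in mature BCs and 135 to 279.8 CPM in senile BCs. In Müller cells they summed to 394.5 to 865 CPM in infancy (median 749) and 449.6 to 824 CPM in senility (median 458), and in RGCs to 483 to 765 CPM and 525 to 686 CPM. The ranges of astrocyte markers overlapped between infant and senile retinas in these 3 classes, though the median in Müller cells was lower in senility. Their part in the SLCO1C1 values of these classes was not tested. In ACs the astrocyte markers summed to 237 to 1079 CPM in infancy (median 742), 256 to 676 CPM in maturity (median 335) and 323 to 935 CPM in senility (median 556). These ranges overlapped, but the medians were lowest in maturity, as the SLCO1C1 means of ACs were (54.6, 36.5 and 49.7 CPM). The part of astrocyte markers in the SLCO1C1 values of ACs was not tested. The 8 AC markers in BCs summed to 60.9 to 105 CPM in infancy and 70.4 to 149.6 CPM in senility. The 10 RGC markers in BCs summed to 127 to 206 CPM in infancy, 38.2 to 137 CPM in maturity and 77.0 to 119 CPM in senility, with 1 of the 10 at 20 CPM or more and 2 at 0. They were thus lower in senility than in infancy without overlap, as SLCO1C1 was, while their mature values overlapped with both, and their part in the BC values was not tested. The 7 Müller markers in Müller cells had a median of 9909 CPM in infancy, 6532 CPM in maturity and 6660 CPM in senility, and their part in the SLCO1C1 values of Müller cells was not tested.

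Within each Cell Ranger version, BC means were 23.2 CPM in infancy, 14.6 in maturity and 8.68 in senility for 5.0.1, and 36.6, 16.6 and 10.4 CPM for 7.0.1. RGC means were 44.6, 27.1 and 27.3 CPM, and 43.0, 29.1 and 23.2 CPM. Müller cells gave 54.8, 16.6 and 17.6 CPM with 5.0.1, and 33.2, 31.0 and 11.3 CPM with 7.0.1. Infant means exceeded senile ones within both versions in these classes. SLCO1C1 was picked for its fall in these same retinas, so this is a description and no support. ACs did so only with 7.0.1, where infant and senile means were 54.7 and 45.6 CPM, against 54.5 and 55.9 CPM with 5.0.1. Astrocytes differed between versions in infancy, with 104 CPM over 3 retinas against 686 CPM over 2 retinas.

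Within ACs and BCs the gene was concentrated in a few groups of nuclei. Groups were clusters that recurred in at least 12 retinas and are called by their 3 leading genes. They comprised 12 groups with 23766 of 29892 AC nuclei and 10 groups with 27964 of 29978 BC nuclei. The highest AC group was led by DOK5, GABRA4 and MEGF11 and held CHAT, the enzyme that makes acetylcholine, at 230.4 CPM and SLC5A7, the choline transporter, at 543 CPM. It made up 8.94% of AC nuclei and held 38.6% of their SLCO1C1 UMIs. Its retinas ranged from 143.5 to 195.9 CPM in infancy, from 91.5 to 167 CPM in maturity and from 153 to 237 CPM in senility, with stage means of 174 ± 22.8, 129 ± 32.9 and 191 ± 32.1 CPM. Infant and senile retinas overlapped in this group.

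The next AC group, led by GABRG3, PRKG1 and SSTR2, had stage means of 102, 126 and 98.9 CPM. A group led by CCBE1, SCML4 and CACNA2D3, the most numerous one with 12.5% of AC nuclei, had 59.1 CPM in infancy (32.9 to 82.3), 27.4 in maturity and 30.0 in senility (13.2 to 39.8). At the low end, the group led by NECAB1, NXPH2 and GABRG3 had 8.42, 5.86 and 4.83 CPM. Of the 12 AC groups, 10 had a lower mean in senility than in infancy, and the exceptions were the groups led by DOK5 and by PTPRT, ST8SIA4 and GABRG1 (34.9, 20.0 and 37.8 CPM). Not all of these differences exceeded the spread. The group led by CBLN1, MDGA1 and PDGFRA had 59.1 ± 18.1 CPM in infancy and 53.7 ± 24.2 CPM in senility (SD). SLCO1C1 was picked for its fall, so nothing is read from the count.

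Among BCs, the group led by FAM20A, GPC6 and HS3ST4 was highest in infancy. It held GRM6, the glutamate receptor of ON BCs, at 43.4 CPM, made up 10.8% of BC nuclei and carried 30.5% of their SLCO1C1 UMIs. Its infant retinas ranged from 72.0 to 122 CPM, its mature retinas from 33.1 to 52.2 CPM and its senile retinas from 0 to 57.4 CPM, with no overlap between infancy and either later stage. Groups led by ADGRL2, KCNH7 and SCN9A (41.4, 19.2 and 14.5 CPM) and by ADARB2, PDE1A and ST18 (29.5, 14.0 and 12.4 CPM) were lower at each stage. PRKCA, a marker of rod BCs, was at 862 CPM in the group led by ADGRL2 and 733 CPM in that led by ADARB2. In the latter, infant retinas lay between 21.7 and 36.1 CPM and senile retinas between 10.4 and 16.0 CPM. In the group led by ADGRL2, infant retinas (15.0 to 61.0 CPM) and senile retinas (0 to 36.1 CPM) overlapped. Over all pairs of a group and a gene of at least 10 CPM, 0.577% had every senile retina below every infant one. The group led by GABRR3, CNTN4 and FNDC1 was at 1.61, 1.38 and 2.42 CPM. Of the 10 BC groups, 8 had a lower senile than infant mean, and the exceptions were the groups led by ADRA1D, NETO1 and NXPH2 (10.1, 7.25 and 10.5 CPM) and by GABRR3. Nothing is read from this count either, as the gene was picked for its fall. Not every group with GRM6 held much SLCO1C1. The group led by HHIP, PTPRQ and RELN held 55.8 CPM of GRM6 and 8.01, 2.78 and 7.21 CPM of SLCO1C1.

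**Figure D2:**
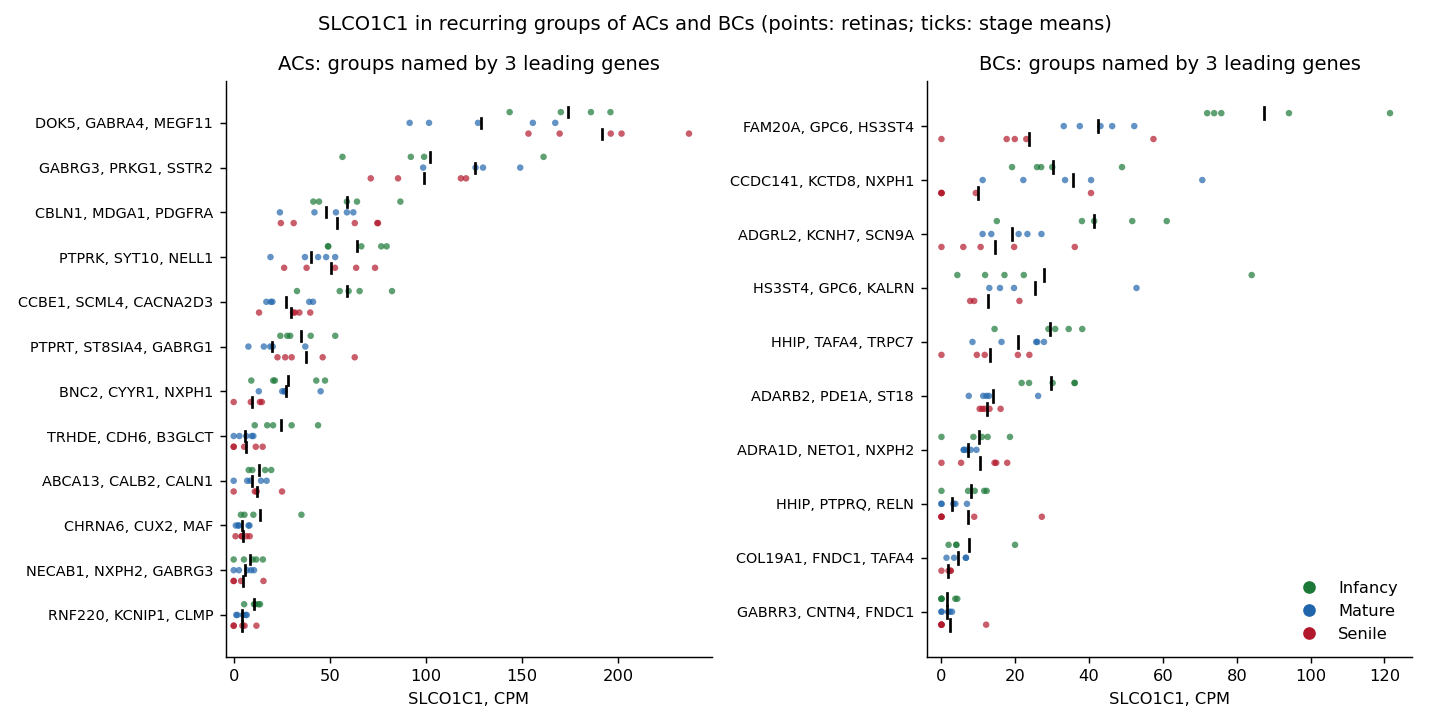
SLCO1C1 in CPM on the horizontal axis for 12 groups of ACs (left) and 10 groups of BCs (right), each named by its 3 leading genes, with 1 point per retina coloured by stage and black ticks at stage means. Levels are highest in the AC group led by DOK5, and infant points of the BC group led by FAM20A lie to the right of its mature and senile points.

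DIO2 was the member most restricted to 1 class. Of its 1932 UMIs over all barcodes, 1025 came from nuclei named as Müller cells. Infant retinas gave 62.1, 58.2, 56.9, 43.3 and 37.6 CPM in Müller cells. Mature retinas gave 48.3, 80.5, 38.7, 42.5 and 63.9 CPM, and senile retinas 67.9, 54.5, 106, 39.5 and 57.6 CPM. The stages overlapped throughout, with means of 51.6 ± 10.6, 54.8 ± 17.3 and 65.0 ± 24.9 CPM. Senile minus infancy was 0.32 ± 0.26 on the log2 scale, with an adjusted p of 0.808 in edgeR's quasi-likelihood test (Benjamini-Hochberg over all genes tested in the class).

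Among the other named classes DIO2 was near the limit of detection. UMIs of unnamed nuclei and of removed barcodes are not covered by these levels. Astrocytes averaged 3.51 CPM on 11 UMIs with 7 of 13 retinas at 0, and every other class averaged 1.74 CPM or less. Müller cells exceeded astrocytes in 13 of 13 retinas, with a log2(CPM + 1) difference of 4.43 ± 1.86 (SD) and an adjusted p of 0.000977 (2-sided exact sign-flip test over retinas, Benjamini-Hochberg over 4 members). The order of classes came from the same retinas as this test. The restriction held with 5.0.1 (61.2 CPM in Müller cells, 2.56 in astrocytes) and with 7.0.1 (53.6 and 4.32 CPM).

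DIO1 had 578 UMIs over all barcodes and class means of 0 to 2.07 CPM. Müller cells, its highest class, rested on 26 UMIs and were not separated from ACs (2.07 against 1.38 CPM, higher in 6 of 15 retinas, adjusted p = 0.619 in the same exact test). Microglia held 0 UMIs of DIO1 in 613 nuclei, for which a count of 0 allows up to 2.54 CPM over the class, by counting error only. ACs were the only class in which DIO1 passed the filter on low counts, and senile minus infancy was −0.36 ± 0.38 there (edgeR, adjusted p = 0.901).

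THRB, with 134977 UMIs, was the most frequently counted member and was high in cones and Müller cells. Cones averaged 871 ± 203 CPM (SD, n = 15; 619 to 1215) and Müller cells 750 ± 172 CPM (561 to 1243). Rods (178 CPM), RGCs (173 CPM), BCs (132 CPM), astrocytes (128 CPM), microglia (115 CPM), HCs (107 CPM) and ACs (103 CPM) were all lower. Müller cells lay above rods in 11 of 11 retinas (2.29 ± 0.97 on the log2 scale) and RGCs above BCs in 13 of 15 retinas (0.41 ± 0.34), and the other neighbours did not differ beyond their spread.

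Cones and Müller cells could not be ranked over all retinas. Cones were higher in 8 of 15 retinas, with a log2 difference of 0.21 ± 0.53 and an adjusted p of 0.200 (2-sided exact sign-flip test). The difference went with the version of Cell Ranger, whose sets of libraries also tended to differ in depth. In the 7 libraries of 5.0.1 cones were higher in 7 of 7 (0.71 ± 0.19; means of 1051 and 642 CPM), and in the 8 libraries of 7.0.1 in 1 of 8 (−0.23 ± 0.24; 712 and 844 CPM).

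Antisense features of THRB (THRB-AS-1 with 2972 UMIs, THRB-AS-4 with 2112 and THRB-AS-2 with 1350) overlap the gene in name, and how reads were shared among them is not given in the sources used here, so the level of THRB is uncertain to that extent.

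**Figure D3:**
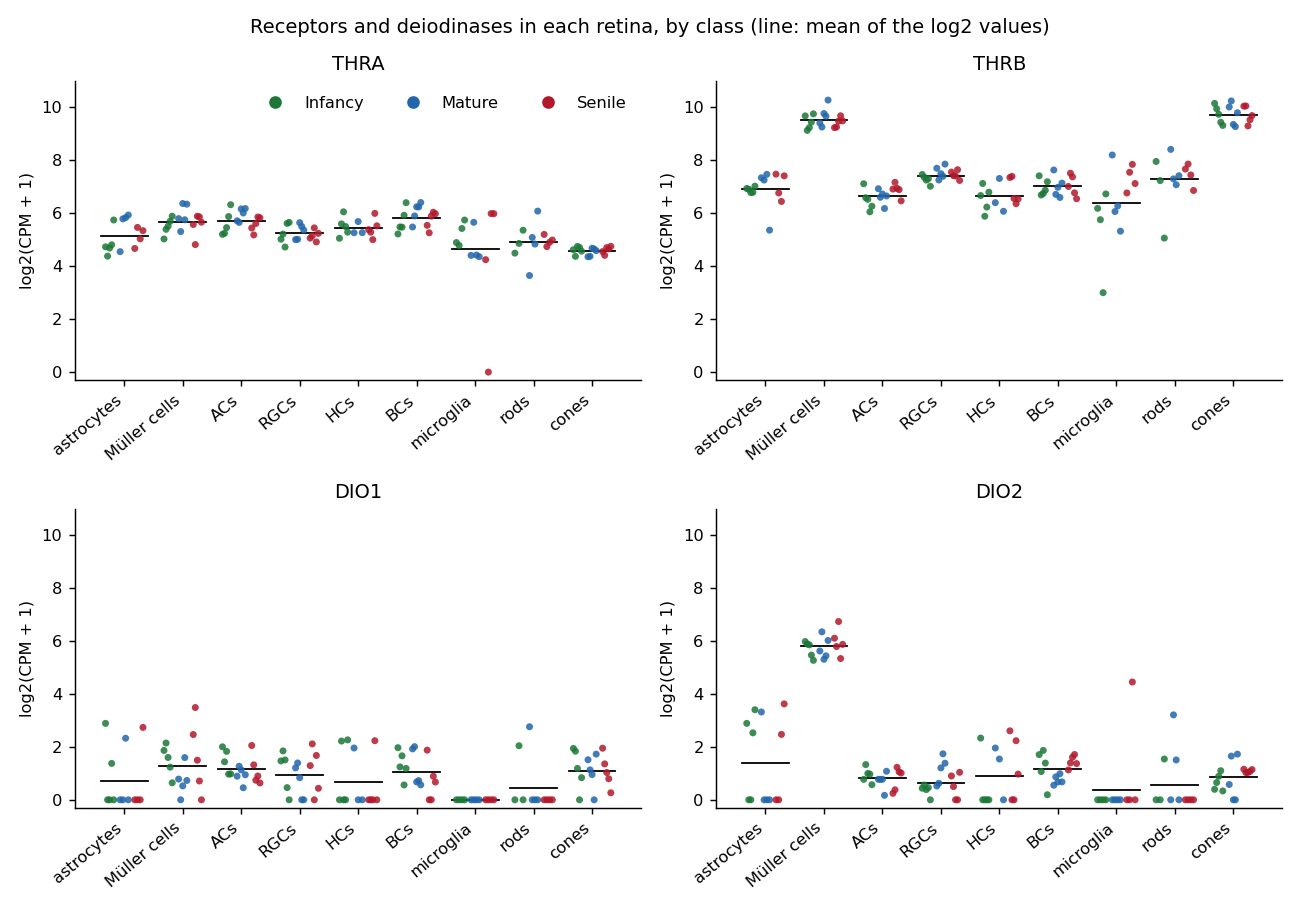
Levels of THRA, THRB, DIO1 and DIO2 in each retina as log2(CPM + 1) on the vertical axes, by class on the horizontal axes, coloured by stage, with a black line at the mean of the log2 values of a class. THRB is high in cones and Müller cells, DIO2 in Müller cells, THRA is spread over all classes and DIO1 lies near 0.

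Cone types differed in THRB. TS have longwave-sensitive cones (L-cones) with OPN1LW and shortwave-sensitive cones (S-cones) with OPN1SW, and cone nuclei were assigned by UMIs of these opsins. In the 10 retinas with at least 10 nuclei of both types, L-cones held 894 ± 244 CPM (660 to 1330) and S-cones 53.6 ± 40.7 CPM (0 to 128). L-cones were higher in 10 of 10 retinas, by 4.71 ± 2.01 (SD) on the log2(CPM + 1) scale, with p = 0.00195 in a 2-sided exact sign-flip test, the smallest p that 10 retinas can give. In S-cones, the 6, 27 and 12 UMIs of Infancy 2, 4 and 5 gave 128, 72.4 and 87.8 CPM. Mature 1 to 4 held 13, 1, 5 and 10 UMIs or 82.9, 21.1, 21.4 and 70.4 CPM, and Senile 1, 3 and 5 held 1, 0 and 7 UMIs or 16.4, 0 and 35.2 CPM. Infant values lay above senile ones among these retinas, but S-cones of Infancy 1 (1 UMI in 8 nuclei, 31.4 CPM) and Infancy 3 (0 UMIs in 3 nuclei), which had too few nuclei to enter, lay within the senile range. On counts this low no stage difference was tested.

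A single group of BCs carried much of the THRB of that class. The group led by HHIP, PTPRQ and RELN held 1161 ± 214 CPM (754 to 1489), with stage means of 1039, 1222 and 1223 CPM, and 40.4% of the THRB UMIs of BCs on 4.97% of their nuclei. The other 9 groups of BCs averaged 27.0 to 175 CPM. Among ACs, the group led by CHRNA6, CUX2 and MAF was highest with 304 ± 73.4 CPM (201 to 401), 32.8% of the THRB UMIs of ACs on 7.43% of their nuclei. The group led by GABRG3, PRKG1 and SSTR2 followed with 225 CPM, and the others averaged 15.4 to 164 CPM. The groups highest in THRB were not the groups highest in SLCO1C1, as the AC group led by DOK5 averaged 28.3 CPM of THRB and the BC group led by HHIP, PTPRQ and RELN held 1.54% of the SLCO1C1 UMIs of BCs. Other groups held much of both. The AC group led by GABRG3, PRKG1 and SSTR2 averaged 109 CPM of SLCO1C1 and was next to the highest for either gene, and the BC group led by ADARB2, PDE1A and ST18 held 18.5% of the SLCO1C1 and 23.0% of the THRB UMIs of BCs.

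**Figure D4:**
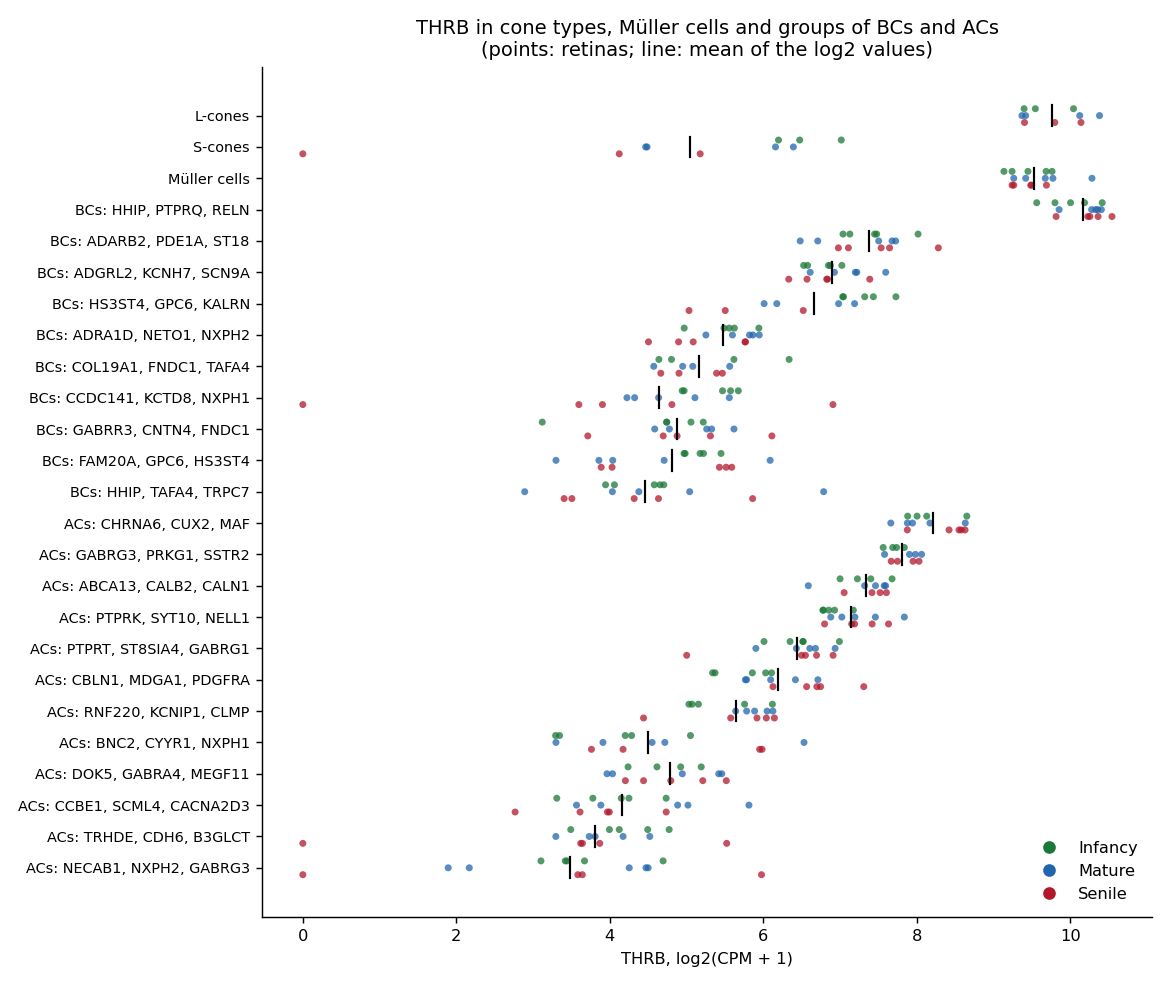
THRB as log2(CPM + 1) on the horizontal axis in L-cones, S-cones, Müller cells and groups of BCs and ACs named by their 3 leading genes, with 1 point per retina coloured by stage and a black line at the mean of the log2 values. L-cones, Müller cells and the BC group led by HHIP, PTPRQ and RELN lie on the right, and S-cones are spread over lower values.

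By stage THRB did not change past the threshold in any of the 9 classes in which it was tested. In cones, infant retinas gave 1139, 990.0, 855, 694 and 639 CPM, mature retinas 1037, 1215, 656, 619 and 892 CPM, and senile retinas 1059, 1064, 631, 741 and 828 CPM. The stages overlapped throughout, and senile minus infancy was 0.04 ± 0.12 (edgeR, adjusted p = 0.954). The value nearest to a change in the neurons was that of ACs, at 0.35 ± 0.16 for senile minus infancy (unadjusted p = 0.0460, adjusted p = 0.566, edgeR). AC retinas ranged from 65.6 to 138 CPM in infancy and from 87.8 to 143 CPM in senility and overlapped. Müller cells stood at −0.20 ± 0.16 (adjusted p = 0.810) and microglia at 1.39 ± 0.67 (adjusted p = 0.465), the latter on 125 UMIs in 12 retinas.

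Within BCs and ACs, infant and senile retinas did not overlap for THRB in 1 group of each class. In the BC group led by HS3ST4, GPC6 and KALRN, THRB averaged 160 CPM in infancy (130 to 211, 5 retinas), 101 CPM in maturity (63.4 to 145, 4 retinas) and 55.6 CPM in senility. Its senile values were 31.7, 44.3 and 90.7 CPM in Senile 1, 4 and 5, on 43 UMIs in all, and they lay below every infant retina. In the AC group led by CBLN1, MDGA1 and PDGFRA, THRB averaged 53.8 CPM in infancy (39.4 to 67.9), 72.6 CPM in maturity (53.4 to 104) and 106 CPM in senility (68.8 to 157), so that senile retinas lay above infant ones by a narrow margin. In the other 20 of the 22 groups, infant and senile retinas overlapped. Over all pairs of a group and a gene of at least 10 CPM, senile retinas lay below all infant ones in 0.577% and above them in 1.66%. These shares pool groups with different numbers of retinas, and fewer retinas separate more easily by chance. They are therefore not a like measure for the group led by HS3ST4, which had 3 senile retinas. These groups were singled out after their values were seen, and no test was run on them.

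THRA was found in all classes, from 23.1 ± 2.29 CPM in cones (19.5 to 26.0) to 58.1 ± 16.1 CPM in BCs (36.3 to 84.0). ACs averaged 53.3 CPM, Müller cells 51.7 CPM, HCs 44.0 CPM, RGCs 37.5 CPM, astrocytes 37.1 CPM, microglia 33.6 CPM and rods 31.8 CPM. No neighbours in this order differed beyond their spread. The difference of BCs over ACs was small, 0.12 ± 0.13 on the log2 scale, but had the same direction in 14 of 15 retinas (adjusted p = 0.0116, 2-sided exact sign-flip test). As for DIO2, this pair of classes was chosen from the same retinas as the test, and the adjustment does not cover that choice.

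The level of THRA differed between libraries of 5.0.1 and of 7.0.1 in most classes, and these sets of libraries also tended to differ in depth. BCs averaged 44.2 CPM (36.3 to 58.8) with 5.0.1 and 70.3 CPM (58.5 to 84.0) with 7.0.1, ACs 42.1 and 63.0 CPM, and Müller cells 40.7 and 61.2 CPM, whereas cones averaged 21.6 and 24.4 CPM. BCs of the infant retinas gave 36.3, 43.8, 43.6, 59.9 and 83.6 CPM, those of the mature retinas 43.7, 58.8, 75.0, 74.6 and 84.0 CPM and those of the senile retinas 45.7, 37.4, 58.5, 64.9 and 62.3 CPM, and the stages overlapped. With the version in the model, senile minus mature was −0.35 ± 0.13 in BCs (adjusted p = 0.425), −0.42 ± 0.12 in ACs (unadjusted p = 0.00227, adjusted p = 0.257) and −0.41 ± 0.18 in Müller cells (adjusted p = 0.589) by edgeR. None passed the threshold, and the 3 unadjusted p under 0.05 in this contrast were these.

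For THRA, THRB, DIO1 and DIO2, 18 gene and class pairs passed the filter on low counts, 7 for THRA, 9 for THRB, 1 for DIO1 and 1 for DIO2. Of these, 0 passed an adjusted p of 0.05 in edgeR for senile minus infancy, mature minus infancy or senile minus mature, with 1, 0 and 3 unadjusted p under 0.05, and DESeq2 also called 0 in each. Over all 90345 gene and class pairs, 1.27%, 0.832% and 0.0266% passed in these contrasts. In simulated data of the same design 75% to 88% of 4-fold and 24% to 46% of 2-fold changes were found, depending on the class. These rates are for 200 changed genes per class and not for the receptors themselves. The SE of senile minus infancy was 0.12 for THRB in cones and 0.67 for THRB in microglia. The size of a change that could have been missed therefore differed between classes. The stage change of THRA and THRB was also compared between classes of the same retinas, in a test that did not include the Cell Ranger version. Over 20 pairs of classes, the lowest unadjusted p was 0.0794 (THRB, cones against ACs) and every adjusted p was 0.960 (two-sided exact permutation of stages). With 5 retinas a stage this test cannot give a p below 0.00794, and a single pair at that p would have an adjusted p of 0.159, so the test could not have called 1 pair alone.

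The wider pathway was described with 45 genes in 7 lists, of which 42 had a feature and 32 passed the filter in at least 1 class, giving 210 gene and class pairs. For senile minus infancy, 1 pair was called higher and 2 lower, beside 1.04% higher and 0.231% lower of all pairs tested, and 0 pairs were called in the other contrasts. The median log2 fold change of senile minus infancy was 0.01 for the 37 pairs of other transporters, 0.00 for the 20 pairs of binding proteins, −0.11 for the 16 pairs of retinoid X receptors, −0.04 for the 27 pairs of corepressors, 0.03 for the 62 pairs of coactivators, −0.01 for the 18 pairs of selenoprotein synthesis and conjugation and −0.09 for the 30 pairs of known targets.

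SLCO4C1, a further organic anion transporter of the family of SLCO1C1, rose in Müller cells. Infant retinas gave 15.9, 7.99, 9.14, 8.11 and 9.54 CPM, mature retinas 14.4, 23.2, 15.8, 10.1 and 8.57 CPM, and senile retinas 21.1, 27.2, 23.7, 34.4 and 24.5 CPM. All senile retinas lay above all infant ones, on 7 to 59 UMIs per retina, and the log2 fold change was 1.40 ± 0.30 (edgeR, adjusted p = 0.0243). The call was lost with the replicate number as a block in place of the version (1.35, adjusted p = 0.0763) and in nuclei gated by their own markers (1.13, adjusted p = 0.203). It was also lost in edgeR without Infancy 2, 3, 4 or 5 or without Senile 2 or 4, with adjusted p of 0.0506 to 0.0911.

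CRYM, a cytosolic protein that binds thyroid hormone, was called lower in BCs and RGCs, but the size of the difference rested on 1 retina. BCs gave 16.2, 14.5, 15.9, 193 and 36.2 CPM in infancy, 9.77, 7.15, 7.65, 45.4 and 7.19 CPM in maturity and 2.08, 9.76, 7.19, 10.5 and 11.6 CPM in senility. Infancy 4 stood far above the others in BCs, in RGCs (76.8 CPM, against 1.42 to 17.7 CPM in the other infant retinas) and in Müller cells (251 CPM). The log2 fold change was −3.00 ± 0.65 in BCs (adjusted p = 0.0250) and −3.15 ± 0.71 in RGCs (adjusted p = 0.0304), and without Infancy 4 it was −1.91 (adjusted p = 0.142) and −1.72 (adjusted p = 0.353), all by edgeR. Senile BCs nevertheless lay below all infant BCs, whereas infant and senile RGCs overlapped.

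**Figure D5:**
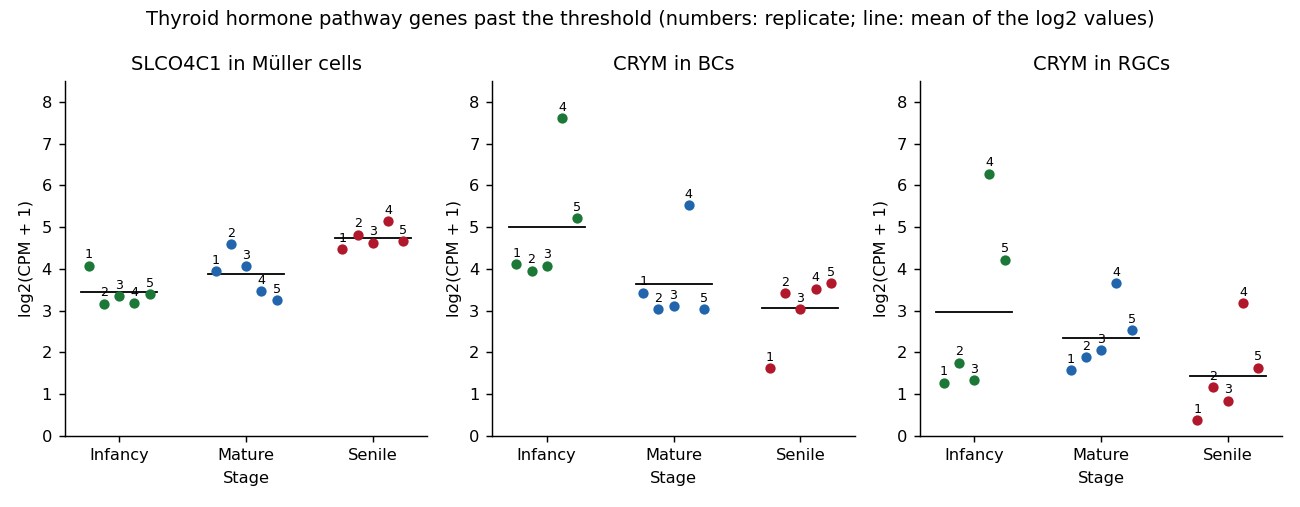
Level of SLCO4C1 in Müller cells and of CRYM in BCs and RGCs as log2(CPM + 1) on the vertical axes, by stage on the horizontal axes, with the replicate number above each point and a black line at the mean of the log2 values. Senile points of SLCO4C1 lie above all infant ones, and Infancy 4 is the highest point of CRYM in both classes.

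Other pathway genes had their highest means in various classes. SLCO2B1 was at 186 ± 65.6 CPM in microglia and at 0.71 CPM in the next class. SLC7A8, an amino acid transporter that also carries thyroid hormone, reached 172 ± 56.1 CPM in Müller cells and 169 ± 56.9 CPM in microglia. SLC16A10 (MCT10), which carries the hormone too, was at 60.0 ± 14.1 CPM in RGCs and 53.3 ± 8.99 CPM in cones. For SLC7A8 and SLC16A10 these highest classes lay within the spread of each other. SLCO3A1 was at 409 ± 50.3 CPM in BCs.

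SLCO1A2 was found in astrocytes. In infancy 4 of 5 retinas were at 0 and Infancy 5 at 4.80 CPM, the mature retinas gave 35.9, 27.2, 42.2 and 40.2 CPM, and the senile retinas 42.9, 0, 27.3 and 56.7 CPM. These values rest on at most 21 UMIs per retina, and the gene was also abundant in small clusters with vascular markers.

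Of the partners of the receptors, RXRG, a retinoid X receptor known from cones, was at 131 ± 30.1 CPM in cones (81.2 to 198) and 57.0 CPM in rods. RXRB was highest in rods (66.7 CPM) and RXRA in microglia (24.9 CPM). The coactivator PPARGC1A stood at 811 ± 88.9 CPM in ACs and 361 CPM in BCs. Of the targets, KLF9, a direct target of the receptors, was at 70.4 ± 28.3 CPM in astrocytes and 48.5 ± 9.04 CPM in Müller cells, and at 1.34 to 6.15 CPM in cones. CAMK4 reached 801 ± 105 CPM in BCs and 179 CPM in ACs, and HR, a corepressor whose gene responds to the hormone, 133 CPM in BCs. MBP (10 UMIs), NRGN and ITGB3 (0 UMIs each) were at or near 0 over all barcodes.

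The genes whose pattern was most like that of SLCO1C1 were sought among 8799 genes, by Pearson's r of log2(CPM + 1) centred on each class, over 75 points (15 retinas in cones, BCs, ACs, RGCs and Müller cells). Points of a retina share its library and depth. The genes compared had to reach a mean of 10 CPM over the infant retinas in at least 3 classes, so genes that are high in infancy, as SLCO1C1 is, were favoured over genes that are high only later. IGF2BP2, an mRNA-binding protein of development, had r = 0.600 and stage means of 64.3, 3.94 and 1.64 CPM in BCs and 132, 46.8 and 35.7 CPM in Müller cells. NCAN, the proteoglycan neurocan, had r = 0.586 and 47.9, 19.7 and 14.6 CPM in Müller cells. LRRC14 (r = 0.520), the antisense feature PDE3A-AS-1 (r = 0.498) and TLL1 (r = 0.488) followed. PDE3A-AS-1 had 27.4, 17.5 and 11.9 CPM in BCs, and the RefSeq gene list for assembly TupChi_1.0 places PDE3A directly after SLCO1C1, so reads shared between neighbouring features remain uncertain for this pair.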

How the data were processed

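Single-nucleus RNA counts of 15 TS retinas were analysed, 5 per stage, grouped by the stage in the labels. The authors used Cell Ranger with TS_3.0 as reference and deposited raw UMI counts per gene feature and called barcode, 1 matrix per retina, without normalization. The submitters' processing notes give versions 5.0.1 and 7.0.1, the file headers 6.1.2 and 7.0.1 with the same split of libraries, and the study's methods a single version for all. The counting of intronic reads is not given in the sources used here. Versions that count introns differently would shift genes with long introns, so the version was a term of each fit.

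Limits on a barcode were over 200 genes, under 6000 genes and less than 5% of UMIs from mitochondria, and 7940 called doublets (by simulated doublets among neighbours) were removed. Each retina was clustered alone on 2000 variable genes without members or pathway genes (30 components, 20 neighbours, Leiden resolution 3), and clusters were named from marker lists. Naming thresholds (score 0.35, ratio 0.7) and the groups of BCs and ACs were set after clusters had been seen. L-cones had at least 2 UMIs of OPN1LW and 0 of OPN1SW, and S-cones at least 2 UMIs of OPN1SW and more than of OPN1LW.

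UMIs were summed per retina and class. Sums were fitted per class over all 3 stages with edgeR 4.0.16 (TMM, filterByExpr, quasi-likelihood test, R 4.3.3), with Benjamini-Hochberg adjustment over all genes tested in the class, and the procedure was tested on simulated data with 200 changed genes per class. Differences between classes were tested over retinas by exact sign flips of log2(CPM + 1). Alternatives were DESeq2 1.42.0, no filter, no version term, each version alone, sex as marked in the study, a replicate block, leaving out each retina, doublets kept, at least 30 nuclei, gated nuclei, a resolution of 1.5, totals without LINC-FRMD8-1 and a pseudocount of 10 CPM. Other tools were igraph 0.11.9, scikit-learn 1.9.0, scipy 1.17.1, numpy 2.4.6, pandas 2.3.3 and matplotlib 3.10.9 in Python 3.11.15.

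Members and gene lists were chosen with earlier results of these data known. Named genes were the 6 members, pathway genes called for senile minus infancy, and the 5 genes most like SLCO1C1 among those with a mean of at least 10 CPM over infant retinas in at least 3 classes. Other genes and all groups of BCs and ACs named in the text were chosen after their values had been seen. DIO3, SLCO1B1, SLCO1B3 and GPS2 were not analysed here. Sequences and coordinates were not used here. Intervals and floors (3 UMIs) cover counting error only.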

Additional observations from a re-analysis of the deposited data

Results flagged for a closer look

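In 7 of 74 groups of 4 or 5 retinas, 1 retina lay apart from the rest by Dixon's criterion. Chance meets this criterion in about 1 of 20 groups if values are independent and normally distributed. Groups here share retinas and some rest on few UMIs, so nothing is read from the count. Infancy 5 was the retina in 4 of the 7 groups. It had the highest SLCO1C1 of the infant retinas in cones, 3.67 CPM against 0.425 to 1.00 CPM in the others. It also led in BCs, with 46.8 CPM against 21.1 to 26.4 CPM, and in microglia, with 47.9 CPM while the other infant retinas were at 0. Its THRA in astrocytes was 52.8 CPM, against 19.9 to 27.1 CPM.

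Mature 1 had the lowest THRA of the mature retinas in astrocytes, 22.4 CPM against 54.3 to 60.3 CPM, and the highest THRB in microglia, 294 CPM against 39.1 to 76.7 CPM. Mature 2 had the highest THRA in microglia, 49.6 CPM against 19.6 to 20.5 CPM. Microglia summed to 32157 to 208822 UMIs of all genes per retina and astrocytes to 92490 to 627638.

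Signal was also found outside the 9 classes. A cluster of 33 nuclei in Infancy 3, led by TTR, CLUL1 and RPE65 and left unnamed, held 22 UMIs of SLCO1C1, or 396 CPM (exact 95% Poisson interval 248 to 600 CPM, counting error only), in a retina whose astrocytes held 94.2 CPM.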

How the results depend on the processing

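The 0 calls among the members stayed at 0 under every alternative run in all 3 contrasts, in a design that found 24% to 46% of simulated 2-fold changes. The 3 pathway calls became 5 with DESeq2, 16 without the filter on low counts, 1 without the version term, 0 within the libraries of 5.0.1, 0 within those of 7.0.1 and 0 to 5 when each retina was left out (0 without Infancy 4, 1 without Senile 1, 3, 4 or 5, and 5 without Mature 3 or 5). For SLCO1C1, the difference of mean log2(CPM + 1), senile minus infancy, was −0.83 in RGCs and −0.559 in gated nuclei. It was −0.15 in ACs and 0.0396 within 5.0.1, and −0.38 in astrocytes but 0.929 within 5.0.1 and −2.11 within 7.0.1. Leaving out 1 retina gave −0.829 to 0.0491 in astrocytes, −0.209 to −0.0402 in ACs, −0.920 to −0.732 in RGCs, −1.56 to −1.27 in BCs, −1.82 to −1.43 in Müller cells and −1.58 to −0.977 in HCs. The sign of SLCO1C1 in any of these classes is no support, as the gene was chosen for its fall in several classes. THRB in L-cones against S-cones was 3.97 over the 5 retinas with at least 20 nuclei of each type, where the exact sign-flip test gave p = 0.0625, the smallest it can give there. Signs also turned for values that were not called. THRB in cones was −0.0902 without the version term, −0.0114 within 5.0.1, −0.0946 with the replicate block and −0.0690 in gated nuclei. THRB in BCs was −0.0715 without the filter, −0.00265 without the version term, −0.153 within 7.0.1, −0.0263 with sex, −0.0261 in gated nuclei and −0.0729 to 0.120 when a retina was left out. THRB in RGCs was −0.0597 within 5.0.1 and −0.0191 to 0.106 when a retina was left out, and THRB in Müller cells was 0.0884 with doublets kept. THRA was 0.0433 in cones within 7.0.1 and 0.00939 in Müller cells without the version term, and DIO2 in Müller cells was −0.0235 within 5.0.1. SLCO4C1 in Müller cells ranged from 1.22 to 1.56 when a retina was left out, and CRYM from −3.27 to −1.91 in BCs and from −3.79 to −1.72 in RGCs. Replicate numbers recur in each stage, and the labels name no shared litter or day for them. They run with the processing, as all retinas numbered 1 or 2 have version 5.0.1 and all numbered 4 or 5 have 7.0.1. In all, 13 of 15 same-number pairs of retinas correlated above 0.1 (−0.448 to 0.589, median 0.374), against 25 of 60 pairs of other numbers (median −0.295). When correlations were averaged per number over the other stages, 4 of 15 retinas had their highest mean with their own number. With the number as a block, 2 pathway pairs were called and SLCO4C1 had 1.35 (edgeR, adjusted p = 0.0763). Causes were not tested.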

Other observations

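SLCO1C1 and its relative SLCO1A2 were also counted in small clusters outside the 9 classes. Intervals are exact 95% Poisson intervals and cover counting error only, and each cluster comes from 1 retina. In Senile 1, 23 nuclei led by B2M, RPE65 and TTR held 4 UMIs of SLCO1C1 (216 CPM, 58.9 to 553) and 17 UMIs of SLCO1A2 (919 CPM). In Senile 4, 27 nuclei led by IDO1, COL8A1 and RPE65 held 7 UMIs of SLCO1C1 (138 CPM, 55.6 to 285) and as many of SLCO1A2. In Mature 4, 84 nuclei led by GPNMB, RGS5 and COL8A1 held 13 UMIs of SLCO1C1 (42.5 CPM, 22.6 to 72.6) with 6 UMIs of SLCO1A2 (19.6 CPM) and THRB at 748 CPM. In Mature 1, 34 nuclei led by TTR, RGS5 and OTOS held 0 UMIs of SLCO1C1, against 3 UMIs of SLCO1A2, with an upper bound of 110.4 CPM that covers or overlaps the values of Mature 4, Senile 1 and Senile 4.

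The remaining clusters also had fewer UMIs of SLCO1C1 than of SLCO1A2, as those of Senile 1 and Mature 1 did. In Senile 5, 173 endothelial-like nuclei held 7 UMIs of SLCO1C1 (34.9 CPM, 14.0 to 72.0) and 34 UMIs of SLCO1A2 (169.6 CPM). A cluster of 21 nuclei in Mature 3, led by RGS5, ITGBL1 and ADGRF5, held 2 UMIs of SLCO1C1 and 37 UMIs of SLCO1A2. In Infancy 1, 30 nuclei led by B2M, CLDN5 and RAMP2 held 0 UMIs of SLCO1C1 and 12 UMIs of SLCO1A2. In Infancy 2, 53 nuclei led by CLUL1, CLDN5 and RAMP2 held 1 UMI of SLCO1C1 and 14 UMIs of SLCO1A2. These clusters were too few and too small for a comparison of stages.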
